A study of Mus musculus with 6 samples.

Results

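Molecular chaperones were compared between RNA bound to tagged ribosomes and total RNA of the mouse preoptic area, a hypothalamic region that controls body temperature, sleep and reproductive behaviour. The genes were the protein-coding rows of the deposited table whose symbols begin with Hsp followed by a digit or by a, b, d, e or h, with Dnaja, Dnajb or Dnajc, or with Cct2 to Cct8, together with Tcp1. They numbered 83 of the 27884 genes in the table, and 76 of the 83 had enough counts to be tested.

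The tissue came from female NuTRAP::Pnoc-Cre mice aged 17 to 18 weeks, and preoptic area punches of 3 animals were pooled for each of 3 replicates. NuTRAP is a transgene that puts EGFP on the ribosomal protein L10a in cells expressing Cre, and Pnoc encodes prepronociceptin, the precursor of the neuropeptide nociceptin. The 3 IP libraries hold the RNA captured with anti-GFP beads, and the 3 input libraries hold the total RNA of the same pools, so both groups share genotype, sex and age, and no mouse without Cre or without the tag was compared. Cre may have acted at any earlier age, so tagged cells need not express Pnoc in the adult. In bulk samples such as these, fewer cells of a type and less RNA per cell cannot be told apart.

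Chaperones bind proteins that are not yet folded, or that have come unfolded, and hold, fold or hand them on. Hsp70 proteins do so in cycles of ATP hydrolysis that J-domain proteins start and nucleotide exchange factors end, Hsp90 takes over clients that are nearly folded, and small heat shock proteins hold unfolded proteins without ATP. The chaperonins are ring-shaped chambers: CCT encloses actin, tubulin and other cytosolic proteins, and Hspd1 with its lid Hspe1 folds proteins imported into mitochondria. Neurons rely on this system for axonal cytoskeleton, for synaptic vesicle recycling and for mitochondria far from the cell body.

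Ribosome-bound RNA carried more of the transcripts of both mitochondrial chaperonin genes, of the mitochondrial Hsp70 Hspa9, of Hspa12b and of Cct7. It also carried more of the Hsp70 exchange factor Hspbp1 and of 11 J-domain genes, and less of Tcp1, Hspa2 and 4 J-domain genes. In the quasi-likelihood test of edgeR, Benjamini-Hochberg adjusted over all genes tested, 18 chaperone genes were higher in IP than in input and 6 were lower at an adjusted p under 0.05, while 52 were not called. As shares of the 76 tested genes these are 23.7% higher and 7.89% lower. Over all 18640 genes tested, 12.9% were higher and 17.1% lower, and over the protein-coding genes alone 15% were higher and 19% lower. The median log2 fold change, IP over input, was 0.26 over the chaperone genes and -0.07 over all tested genes, and it was above 0 for 54 of the 76 (71.1%) and for 46.8% of all tested genes. All 3 IP libraries lay above all 3 input libraries for 34 chaperone genes (44.7%) and below them for 9 (11.8%), against 21.7% and 26% of all tested genes. All 24 called genes had groups that did not overlap.

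These counts rested on few libraries. Without IP replicate 1 the test called 6 chaperone genes higher and 4 lower, without IP replicate 2 it called 6 and 3, without IP replicate 3 it called 7 and 2, and without input replicate 3 it called 6 and 2. Leaving out input replicate 1 or input replicate 2 left 17 and 19 higher and 5 and 4 lower. Calls over all genes moved too. With libraries or whole replicates left out, 133 to 2630 genes were higher and 742 to 3080 lower, against 2400 and 3191 with all 6 libraries. Whether chaperone calls were lost more often than other calls was not tested. Of the 24 calls, 6 held without each of the 6 libraries in turn: Hspe1, Hspbp1, Dnajc7 and Dnajc30 among the higher genes and Dnajc1 and Dnajc24 among the lower. With library totals in place of TMM scaling, 9 chaperone genes were higher and 6 lower, the median log2 fold change of all genes moved to -0.17, against -0.07 with TMM, and the share of higher genes among all calls was 32%, against 42.9% with TMM. That scaling ended the calls of Cct7, Hspa12b, Dnaja1, Dnajb6, Dnajb11, Dnajc5, Dnajc9, Dnajc11 and Dnajc27 (adjusted p = 0.0547 to 0.120). Fitting without the count filter ended those of Tcp1, Dnaja1, Dnajb11, Dnajc3 and Dnajc27 (adjusted p = 0.0524 to 0.0631).

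**Figure D1:**
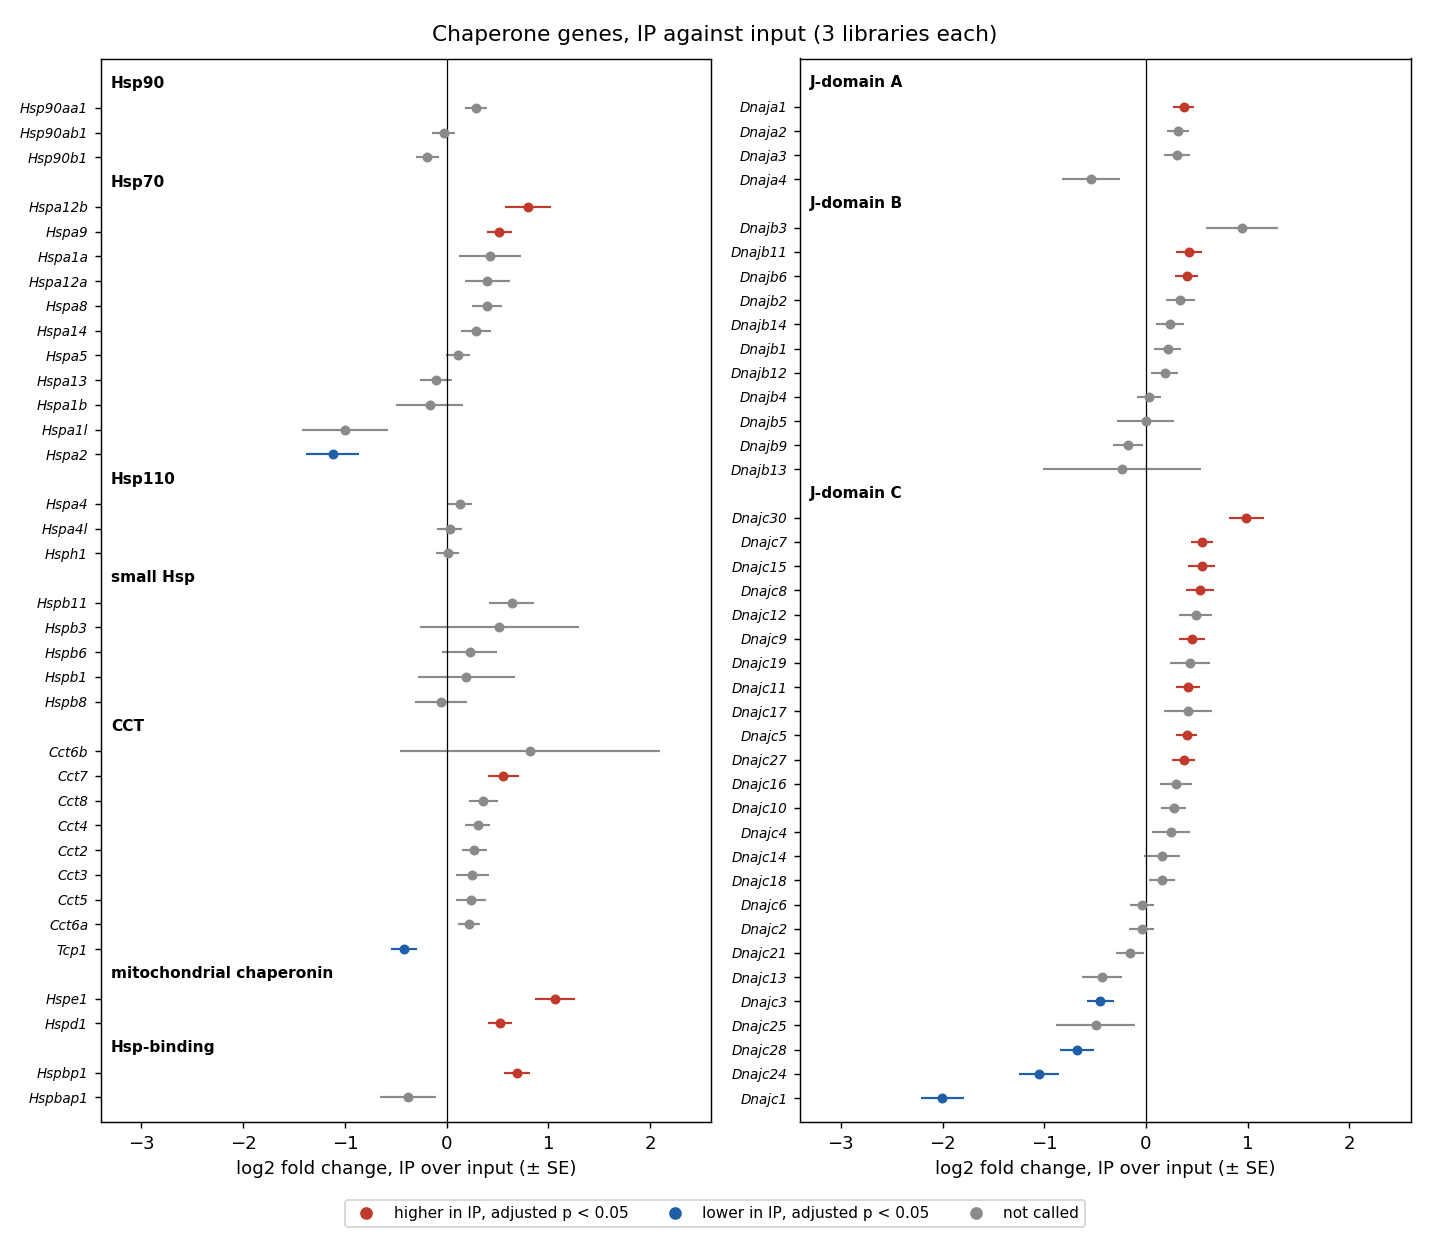
Log2 fold change, IP over input, of 75 tested chaperone genes, grouped by class (points, with SE as bars; 3 libraries per group). Red points were higher in IP and blue points lower at an adjusted p under 0.05, and grey points were not called; the 17 red points run across most classes, and 4 of the 6 blue points are J-domain C genes.

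The purification and the libraries were checked first. Pnoc stood at 47.7, 43.1 and 41.1 CPM (counts scaled to the size of the library) in IP and at 7.51, 11 and 13.2 CPM in input (log2 fold change 2.06 ± 0.22 SE, adjusted p = 0.000472, quasi-likelihood test of edgeR). Of 10 neuronal marker genes 5 were higher in IP and none lower, and their summed level was 11411 to 12702 CPM in IP and 7870 to 9126 CPM in input. All 10 astrocyte, all 10 oligodendrocyte and all 10 microglial marker genes were lower in IP, with sums of 818 to 1014 CPM in IP and 3166 to 3780 CPM in input for astrocytes, 697 to 1025 CPM and 5287 to 6728 CPM for oligodendrocytes, and 19.9 to 31.3 CPM and 196 to 237 CPM for microglia. With the replicate number as a block, which pairs the IP and input RNA of one tissue pool, 6 neuronal markers were called higher, Stmn2 being added (adjusted p = 0.0152), and Map2 was called lower (log2 fold change -0.54, adjusted p = 0.0123; 0.101 without the block, quasi-likelihood test of edgeR). Of 10 endothelial markers 7 were lower, 6 with the block, which ended the call of Cdh5 (adjusted p = 0.0561), and of 8 tested mural markers 5 were lower. Kcnj8, Abcc9 and Myh11, all mural markers, were at 0 in 1 IP library each. The lower glial marker levels in IP stand beside every difference given below, and their part in those differences was not tested. Input replicate 1 stood apart in immediate early genes, whose summed level was 323, 199.8 and 185 CPM in IP replicates 1, 2 and 3 and 755, 153 and 205 CPM in input replicates 1, 2 and 3. That library also gave the lowest of the 3 input values for 37 of the 76 tested chaperone genes and the highest for 29.

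The 83 genes together took 1.53%, 1.58% and 1.45% of all counts in IP and 1.28%, 1.42% and 1.38% in input. Per length, in the authors' FPKM, Hspa8, the constitutive cytosolic Hsp70, was the most abundant of them in IP at 687 ± 45.8 FPKM and the second in input at 511 ± 100 FPKM (SD, n = 3 each). Hsp90ab1, the constitutive cytosolic Hsp90, followed in IP at 561 ± 61.8 FPKM and led in input at 561 ± 12.4 FPKM, with a spread that overlapped that of Hspa8 in input and lay below it in IP. Hsp90aa1, the inducible cytosolic Hsp90, was the third in both, at 469 ± 28.9 FPKM in IP and 378 ± 29.2 FPKM in input. Hspe1 and Hspd1 came next, followed by Cct8, Dnaja2 and Cct2. The level of a gene and its fold change are set side by side in the plot of FPKM against fold change, where called genes occur at levels from about those of Dnajc1 to those of Hspd1.

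**Figure D2:**
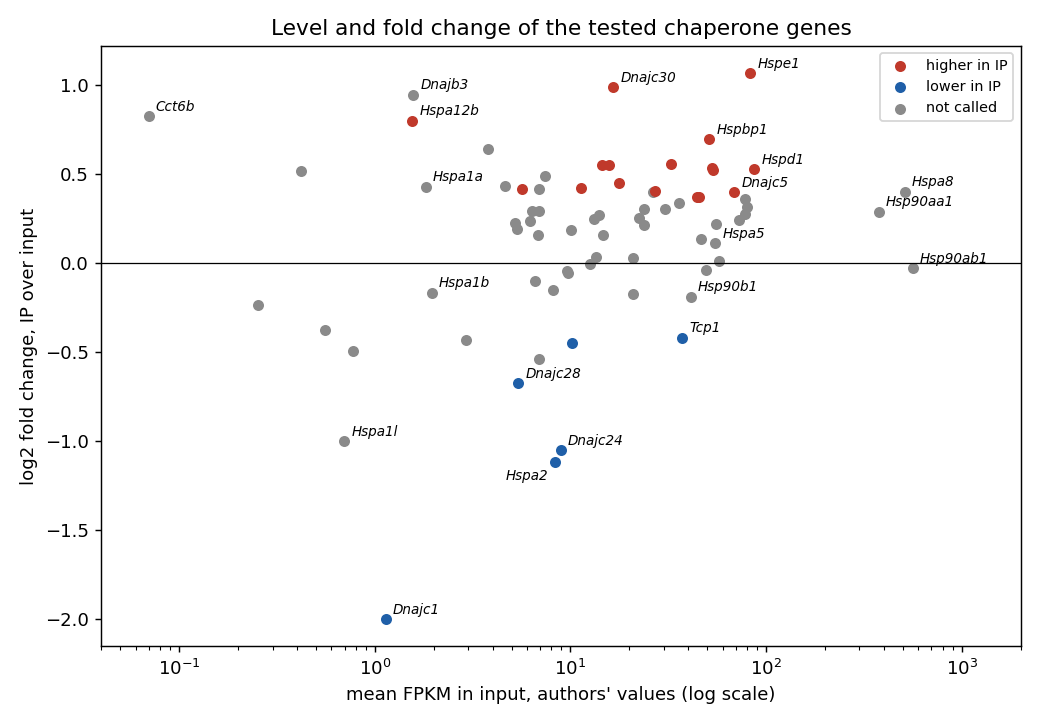
Log2 fold change, IP over input, of 75 tested chaperone genes (vertical axis) against their mean FPKM in input, from the authors' values (horizontal axis, log scale; mean of 3 libraries). Each point is a gene, red where higher and blue where lower in IP; the 3 most abundant genes, Hspa8, Hsp90ab1 and Hsp90aa1, are grey, and Dnajc1 is the lowest point.

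The mitochondrial chaperonin pair was higher in IP. Hspe1, the lid, had 259, 240 and 282 CPM in IP and 87.3, 149 and 137 CPM in input. Every IP library exceeded every input library, and input replicate 1 was the lowest. The log2 fold change was 1.06 ± 0.20 (SE), or 2.09-fold, with an adjusted p of 0.00567 in the quasi-likelihood test of edgeR. A correction for transcript length gave a log2 fold change of 0.78. Hspd1, the chamber, had 354, 353 and 307 CPM in IP and 231, 217 and 257 CPM in input, again with no overlap. Its log2 fold change was 0.53 ± 0.12 with an adjusted p of 0.0141 in the same test, and the call was lost without IP replicate 1 (adjusted p = 0.0571) or IP replicate 2 (adjusted p = 0.0566).

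Both genes lie head to head on chromosome 1, Hspe1 at 55127291 to 55130466 on the plus strand and Hspd1 at 55116994 to 55127402 on the minus strand in GRCm39, and GENCODE M39 gives them 143 shared exonic bases. In RefSeq's promoter table (GRCm38.p6), 215 bases separate the start of Hspe1 from the nearer of the starts of Hspd1. That stretch holds the heat shock element, the site that heat shock factors bind, which is why it is shown for the pair. It was searched as GAANNTTCNNGAA and as its reverse complement TTCNNGAANNTTC, and the match of each shares bases with the other. The capitals mark the 18 bases that the overlapping matches cover, on the plus strand at chr1:55088054-55088081, with 5 bases on either side. The element ends 72 bases before the start of Hspe1 and begins 127 bases from the start of Hspd1.
Hspd1-Hspe1: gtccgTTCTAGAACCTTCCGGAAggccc

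Promoter windows of 300 bases (250 before and 50 after a start) were given for 67 of the 83 genes, 86 windows in all. The element occurred in 6 of these windows, belonging to 4 genes, and in 198 of all 32851 windows in the table (0.603%). The other genes were Dnajb6, a J-domain protein that keeps polyglutamine proteins from aggregating, and Hsph1, an Hsp110. Their sites (GRCm38.p6) are shown in the direction of the gene with the fixed letters of the element in capitals, that of Dnajb6 from chr5:29735852-29735864 (plus strand) and that of Hsph1 from chr5:149636288-149636300 (minus strand, after the start), each with 5 bases on either side. The windows of Hspd1 and Hspe1 share their site, and Dnajb6 and Hsph1 each hold the same site in windows of different starts, so the windows are not independent. Only exact matches were counted, so an element with a changed letter would be missed. These matches describe letters only, and no binding was measured.
Dnajb6: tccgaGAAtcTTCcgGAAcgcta
Hsph1: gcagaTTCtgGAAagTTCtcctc

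Of these 4 genes, Hspd1, Hspe1 and Dnajb6 were higher in IP, and Hsph1 was not called, with 402, 453 and 428 CPM in IP and 454, 412 and 409 CPM in input. Dnajb6 had 218, 215 and 227 CPM in IP and 180, 164 and 156 CPM in input, without overlap (log2 fold change 0.40 ± 0.11, adjusted p = 0.0296 in the quasi-likelihood test of edgeR). Its call was lost without any one of the IP libraries or without input replicate 3 (adjusted p = 0.0750 to 0.0937).

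Of 9 genes listed here as working in mitochondria, 6 were higher and none lower, and all 9 had a positive log2 fold change (median 0.52). In 8 the IP libraries all lay above the input libraries. The list was chosen with earlier results known and need not hold every chaperone gene of mitochondria. Dnajc28, called lower in IP and given below, is not in it. Over all tested genes 12.9% were higher, 46.8% were positive and 21.7% had IP above input without overlap. The 10 neuronal markers also had a median of 0.52, with 5 higher, 8 positive and 7 with IP above input without overlap. Hspa9, which pulls proteins through the inner membrane and folds them in the matrix, had 349, 361 and 298 CPM in IP and 227, 232 and 246 CPM in input (log2 fold change 0.52 ± 0.12, adjusted p = 0.0135 in the quasi-likelihood test of edgeR). Its groups did not overlap, and its call was lost without IP replicate 1 (adjusted p = 0.0551) or IP replicate 2 (adjusted p = 0.0583). Dnajc30, a J-domain protein of the inner membrane, had 51.3, 48.9 and 66.2 CPM in IP and 23.8, 30.6 and 29.7 CPM in input. Its log2 fold change of 0.99 ± 0.17 had an adjusted p of 0.00412 and was the largest positive one of any called J-domain gene. Every IP library again exceeded every input library, and the call held without each library in turn. That rank depended on the fit. With a correction for transcript length the log2 fold change of Dnajc30 was 0.71, below those of Dnajc7 (0.81), Dnajc15 (0.74) and Dnajc11 (0.73).

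Dnajc15, a J-domain protein of the inner membrane that acts at the import motor, had 124, 145 and 155 CPM in IP and 90.6, 105 and 95.0 CPM in input (adjusted p = 0.0165, quasi-likelihood test of edgeR). Dnajc11, found with the complex that shapes the inner membrane, had 79.6, 85.9 and 80.6 CPM in IP and 62.4, 63.3 and 58.7 CPM in input (adjusted p = 0.0280). Neither gene's groups overlapped. The call of Dnajc15 was lost without IP replicate 2 (adjusted p = 0.0602), IP replicate 3 (0.0688) or input replicate 3 (0.0643), and that of Dnajc11 without any of those or IP replicate 1 (adjusted p = 0.0714 to 0.101). Dnaja3, the matrix partner of Hspa9, and Dnajc19, a part of the import motor, were not called although IP lay above input for both, at 131, 117 and 105 CPM in IP and 94.8, 96.1 and 95.3 CPM in input for Dnaja3 (adjusted p = 0.103) and at 23.4, 26.4 and 27.4 CPM in IP and 14.1, 22.5 and 20.6 CPM in input for Dnajc19 (adjusted p = 0.134). Dnajc4 overlapped between groups (adjusted p = 0.360), and a correction for transcript length turned its log2 fold change to -0.08, against 0.24 without it.

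**Figure D3:**
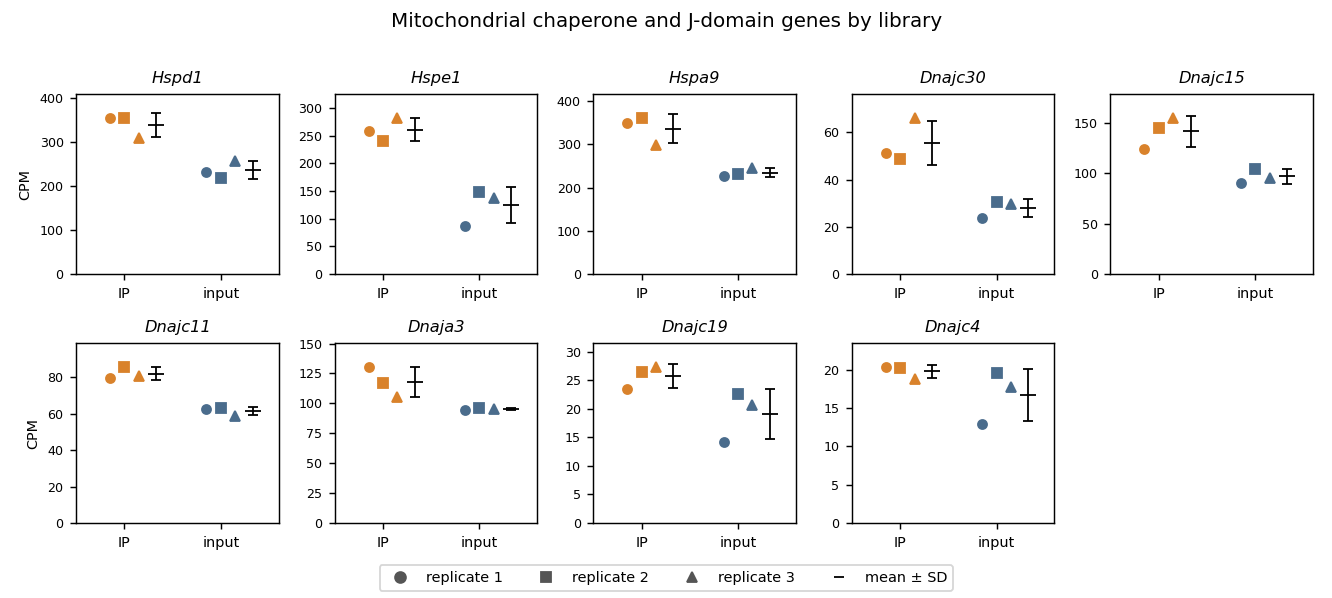
CPM of the 9 chaperone and J-domain genes listed as mitochondrial in each library, IP at the left and input at the right of each panel (circles, squares and triangles are replicates 1, 2 and 3; black bars are mean ± SD, n = 3; axes start at 0). IP lies above input without overlap in every panel but that of Dnajc4, and input replicate 1 is the lowest input for Hspe1, Hspa9, Dnajc30, Dnajc15, Dnajc19, Dnaja3 and Dnajc4.

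Of 10 genes of mitochondrial protein quality control under other names, 3 were higher and none lower (median log2 fold change 0.22), and 2 were higher with library totals. Tomm34, a cochaperone that hands precursors to the outer membrane, had 163, 149 and 145 CPM in IP and 95.5, 87.6 and 91.9 CPM in input (adjusted p = 0.00292), and Clpp, a matrix protease, had 123, 132 and 142 CPM in IP and 55.1, 83.6 and 66.5 CPM in input (adjusted p = 0.00463). The exchange factors of Hspa9 were not called: Grpel1 had a log2 fold change of -0.18 ± 0.17 and Grpel2 one of 0.04 ± 0.18. Trap1, the mitochondrial Hsp90, was not called either, at -0.05 ± 0.17.

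In the cytosolic chaperonin CCT, one subunit gene was higher and one lower. CCT rings hold 8 different subunits in fixed proportion, and each has its own gene in the set. Cct7 had 366, 357 and 276 CPM in IP and 197, 246 and 236 CPM in input (log2 fold change 0.56 ± 0.15, adjusted p = 0.0258 in the quasi-likelihood test of edgeR). Tcp1, the alpha subunit, had 143, 156 and 129 CPM in IP and 176, 197 and 200 CPM in input (log2 fold change -0.42 ± 0.13, adjusted p = 0.0357). The groups did not overlap for either gene. The other 6 ring subunits were not called, with log2 fold changes between 0.22 for Cct6a and 0.36 for Cct8, and IP lay above input without overlap for Cct2, Cct4, Cct6a and Cct8 but not for Cct3 or Cct5. The 7 subunits other than Tcp1 were all positive, and for all 8 the lowest input library was replicate 1.

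Set against the geometric mean of the other 7 subunits, Tcp1 stood at 0.577, 0.635 and 0.603 in IP and at 1.06, 0.941 and 1.03 in input. This ratio within a library needs no scaling between libraries, and the groups lay far apart. Cct7 stood at 1.68, 1.64 and 1.44 in IP and at 1.2, 1.22 and 1.25 in input on the same measure, and Cct8 at 1.51, 1.54 and 1.45 in IP and at 1.31, 1.38 and 1.35 in input. For the remaining 5 subunits the ratios overlapped between IP and input. Tcp1 is among the 7 that each other subunit is set against, so its lower level in IP raises their IP ratios. The gaps of Cct7 and Cct8 on this measure are therefore not separate from that of Tcp1. Ratios that leave out Tcp1 were not computed. The call of Tcp1 was lost without any library but input replicate 1 (adjusted p = 0.0597 to 0.180) and with a correction for transcript length (adjusted p = 0.118), and that of Cct7 was lost without IP replicate 1 (0.0904), IP replicate 2 (0.0906) or input replicate 3 (0.0730). Tcp1 shares exonic bases on the opposite strand with Mrpl18 (442 bases), Acat2 (322 bases) and Acat3 (776 bases, 13.8% of the exonic bases of Tcp1). Of these, Mrpl18 and Acat2 were higher in IP, with log2 fold changes of 1.01 and 0.52, and Acat3 was lower, with -3.20 on 713 counts in all 6 libraries against 50454 for Tcp1. Whether the counting used strand is not given in the sources used here, and the part of these neighbours in the values was not tested.

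**Figure D4:**
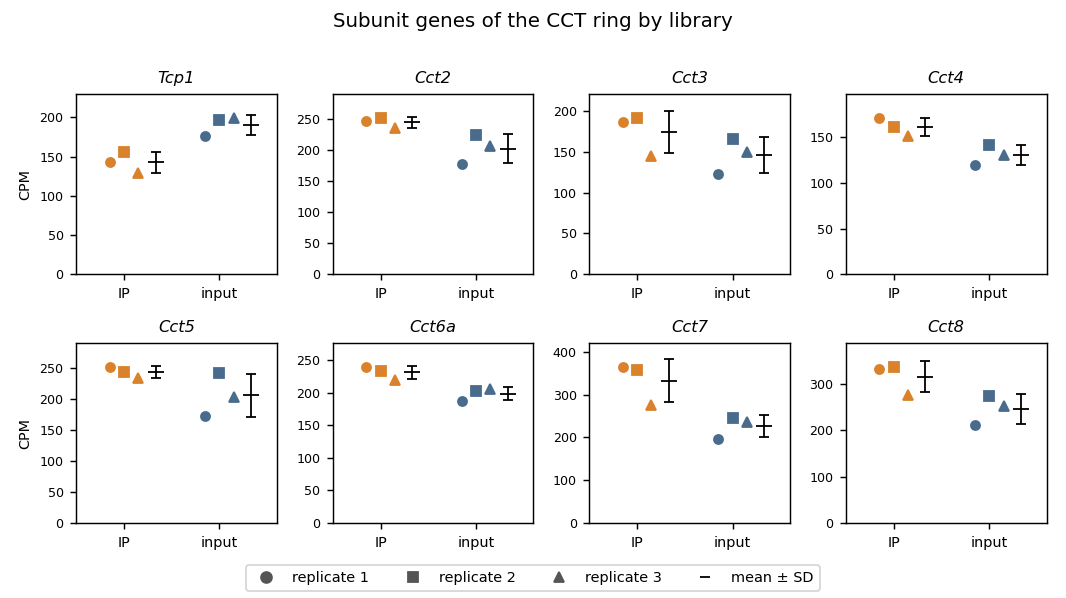
CPM of the 8 CCT ring subunit genes in each library, IP at the left and input at the right of each panel (circles, squares and triangles are replicates 1, 2 and 3; black bars are mean ± SD, n = 3; axes start at 0). Tcp1 is the one panel with IP below input, and Cct3 and Cct5 are the panels where the groups overlap.

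Cct6b, a copy of the zeta subunit known from testis, was near the detection limit at 0.213, 0.304 and 0.202 CPM in IP and 0.367, 0.0367 and 0 CPM in input. Of 8 tested genes of prefoldin, which delivers actin and tubulin to CCT, and of the phosducin-like family, which assists it, 4 were higher and 1 lower. Pfdn6 had 78.6, 89.3 and 75.9 CPM in IP and 30.3, 42.3 and 37.8 CPM in input (log2 fold change 1.14 ± 0.16, adjusted p = 0.00159), and Pfdn4 had a log2 fold change of 1.04 ± 0.17 (adjusted p = 0.00312). Pdcl was lower, with 20.5, 25.7 and 24.0 CPM in IP and 36.1, 36.5 and 32.1 CPM in input (adjusted p = 0.0193, quasi-likelihood test of edgeR), and its call was lost without IP replicate 1 or 3 or input replicate 2 or 3 (adjusted p up to 0.0803). With the replicate block Pfdn2, a prefoldin subunit, was called higher as well (adjusted p = 0.0264 with the block and 0.0625 without it).

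Among 11 Hsp70 genes, 2 were higher and 1 lower, with a median log2 fold change of 0.29. Hspa9 is described above. Hspa8, which carries folding in the cytosol and strips clathrin from vesicles, had 2916, 3169 and 2784 CPM in IP and 1826, 2670.4 and 2229 CPM in input. The groups did not overlap, but input replicate 2 came close to IP replicate 3, and the log2 fold change of 0.40 ± 0.15 was not called (adjusted p = 0.0763). With the replicate block Hspa8 was called (adjusted p = 0.0315), and so was Hspa12a, a divergent Hsp70, which overlapped between groups at 260, 417 and 303 CPM in IP and 220, 319 and 204 CPM in input (adjusted p = 0.0409 with the block and 0.214 without it).

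Hspa2, an Hsp70 best known for its part in sperm development, was lower, with 14.7, 8.44 and 8.12 CPM in IP and 25.8, 18.8 and 23.1 CPM in input. The groups did not overlap, and IP replicate 1 was the highest IP library. The log2 fold change was -1.12 ± 0.26 (adjusted p = 0.0139), and the call was lost without IP replicate 2 (0.0570), IP replicate 3 (0.0578) or input replicate 3 (0.0545). Hspa12b, the sister gene of Hspa12a, had 11.7, 7.89 and 10.9 CPM in IP and 5.91, 5.12 and 6.49 CPM in input (log2 fold change 0.80 ± 0.23, adjusted p = 0.0298), and the call was lost without IP replicate 1 (0.102), IP replicate 3 (0.0906), input replicate 2 (0.0619) or input replicate 3 (0.0550). Adissp, on the opposite strand, covers 36.1% of the exonic bases of Hspa12b, held 48172 counts in all 6 libraries against 2374 for Hspa12b, and was itself higher in IP, with a log2 fold change of 0.78 (adjusted p = 0.00216). Its part in the level of Hspa12b was not tested.

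The stress-inducible Hsp70 pair was low and not called. Hspa1a had 7.68, 10 and 4.47 CPM in IP and 5.22, 6.13 and 5.14 CPM in input, and Hspa1b had 5.86, 4.58 and 4.51 CPM in IP and 6.92, 6.69 and 3.19 CPM in input. The groups overlapped for both, and their log2 fold changes were 0.43 ± 0.31 and -0.17 ± 0.33. The genes are near copies, with 52.7% of the distinct 75-base stretches of Hspa1a transcripts also in those of Hspa1b, so the split of reads between them is uncertain. Their promoter windows were 98.7% identical. Hspa5, the Hsp70 of the endoplasmic reticulum (ER), had 262, 272 and 237 CPM in IP and 220, 243 and 251 CPM in input and was not called (log2 fold change 0.11 ± 0.12). Hspa13, Hspa14 and Hspa1l were not called, at -0.10 ± 0.16, 0.29 ± 0.14 and -1.0 ± 0.42. Hspa1l, known mainly from testis, stayed at or below 1.09 CPM in IP and at or above 1.47 CPM in input (adjusted p = 0.109).

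Nothing in the Hsp110 class was called. These large Hsp70 relatives swap ADP for ATP on Hsp70, and Hspa4, Hspa4l and Hsph1 had log2 fold changes of 0.13 ± 0.12, 0.03 ± 0.13 and 0.01 ± 0.11, of which those of Hspa4l and Hsph1 turned to -0.08 and -0.10 with library totals. Of the exchange factors, Hspbp1, which releases nucleotide from cytosolic Hsp70, had 170, 165 and 144 CPM in IP and 88.7, 103 and 105 CPM in input. All IP libraries exceeded all input libraries, with a log2 fold change of 0.69 ± 0.13 (adjusted p = 0.00570, quasi-likelihood test of edgeR). The call held without each library in turn, and a correction for transcript length gave a log2 fold change of 0.46. Hspbap1, which binds a small heat shock protein, was not called at 4.41, 4.81 and 3.06 CPM in IP and 6.14, 5.14 and 4.70 CPM in input. Of 10 exchange factors under other names 3 were higher and none lower, with Bag1, which couples Hsp70 to the proteasome, at 369, 386 and 494 CPM in IP and 192, 243 and 222 CPM in input (log2 fold change 0.93 ± 0.15, adjusted p = 0.00347), and Hyou1, the ER member, at 0.38 ± 0.11 (adjusted p = 0.0364). The call of Hyou1 was lost without any one of the IP libraries, without input replicate 3 (adjusted p up to 0.122) and with library totals (0.105). Of these exchange factors 1 was called higher with library totals and 5 with a correction for transcript length.

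None of the 3 Hsp90 genes was called. Hsp90aa1 had 1770.4, 1970.1 and 1799 CPM in IP and 1405, 1611 and 1527 CPM in input, without overlap (log2 fold change 0.29 ± 0.11, adjusted p = 0.0794). Hsp90ab1 overlapped, at 1773, 1811 and 1463 CPM in IP and 1701, 1706 and 1745 CPM in input (-0.03 ± 0.12). Hsp90b1, the Hsp90 of the ER, had 156, 150 and 140 CPM in IP and 170, 169 and 170 CPM in input, below input in every IP library but not called (-0.19 ± 0.11, adjusted p = 0.233). Of 17 tested genes that encode cochaperones of Hsp70 and Hsp90 under other names, 7 were higher and 1 lower, and with library totals 5 were higher and 2 lower. Stub1, a ubiquitin ligase that bridges chaperones and degradation, had 93.6, 112 and 91.2 CPM in IP and 59.4, 53.0 and 60.7 CPM in input (log2 fold change 0.78 ± 0.14, adjusted p = 0.00422). Ahsa1, which speeds the ATPase of Hsp90, had a log2 fold change of 0.73 ± 0.13 (adjusted p = 0.00463). Sgtb, a small tetratricopeptide cochaperone, was lower, with 70.6, 75.0 and 67.4 CPM in IP and 145, 110 and 107 CPM in input (-0.77 ± 0.15, adjusted p = 0.00724).

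The J-domain proteins choose the clients of Hsp70 and start its ATPase, and they made up 44 of the 83 genes. Of 40 tested, 11 were higher and 4 lower, with a median log2 fold change of 0.26. In class A, which resembles the bacterial DnaJ, Dnaja1 alone of 4 genes was called, with 536, 507 and 514 CPM in IP and 416, 407 and 382 CPM in input (log2 fold change 0.37 ± 0.10, adjusted p = 0.0289). Its groups did not overlap, and the call was lost without any IP library or without input replicate 3 (adjusted p = 0.0722 to 0.106). Smu1, on the opposite strand, covers 77.9% of its annotated exonic bases, with 16568 counts against 137541 for Dnaja1, and was not called (log2 fold change 0.12). In class B, Dnajb6 and Dnajb11 were the 2 called of 11. Dnajb1, the heat-inducible J-domain partner of Hsp70 in the cytosol, had 102, 83.0 and 84.6 CPM in IP and 74.8, 79.8 and 78.4 CPM in input and was not called (0.21 ± 0.13).

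In class C, whose members share little beyond the J domain, 8 of 25 tested genes were higher and 4 lower. Dnajc7, which binds Hsp70 and Hsp90 at once, had 213, 206 and 195 CPM in IP and 134, 142 and 143 CPM in input. The groups did not overlap, and the log2 fold change of 0.55 ± 0.11 (adjusted p = 0.00757, quasi-likelihood test of edgeR) kept its call without each library. Cnp, an oligodendrocyte gene on the opposite strand that shares 670 exonic bases with Dnajc7, went the other way, with a log2 fold change of -2.37. Dnajc5, the cysteine string protein that guards synaptic vesicle fusion, had 634, 629 and 662 CPM in IP and 514, 479 and 468 CPM in input (log2 fold change 0.40 ± 0.10, adjusted p = 0.0217). Its call was lost without any IP library or without input replicate 3 (adjusted p = 0.0597 to 0.0750). Dnajc6, auxilin, which recruits Hspa8 to clathrin coats, overlapped between groups at 287, 308 and 271 CPM in IP and 316, 273 and 303 CPM in input (-0.04 ± 0.12).

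Dnajc8, a protein of the splicing machinery, Dnajc9, a histone chaperone, and Dnajc27, which joins a J domain to a small GTPase, were higher with log2 fold changes of 0.53, 0.45 and 0.37, and IP lay above input in every library for each. Dnajc8 had 211, 197 and 190 CPM in IP and 117, 155 and 142 CPM in input. Those of Dnajc9 were 63.0, 57.2 and 56.5 CPM in IP and 39.4, 45.9 and 44.0 CPM in input, and those of Dnajc27 were 297, 290 and 310 CPM in IP and 222, 222 and 249 CPM in input. Their calls were lost without 4, 4 and 5 of the 6 libraries in turn, with an adjusted p of up to 0.0732 for Dnajc8 (IP replicate 1), 0.107 for Dnajc9 (IP replicate 1) and 0.112 for Dnajc27 (IP replicate 3). A correction for transcript length ended the call of Dnajc9 (adjusted p = 0.0837). Dnajc12, a cochaperone of the aromatic amino acid hydroxylases, had 47.5, 43.5 and 50.8 CPM in IP and 27.2, 38.0 and 36.0 CPM in input and missed the threshold (adjusted p = 0.0511), which it passed with the replicate block (adjusted p = 0.0374).

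Dnajc1 showed the largest change of the tested chaperone genes in either direction. This J-domain protein of the ER membrane had 3.67, 2.73 and 3.75 CPM in IP and 14.5, 13.8 and 12.4 CPM in input. The groups were far apart, and the log2 fold change of -2.0 ± 0.21 (adjusted p = 0.000503, quasi-likelihood test of edgeR), or 4.00-fold lower, held without each library in turn. Mllt10, on the opposite strand with 749 shared exonic bases, was also lower, with a log2 fold change of -0.76. It held 6057 counts in all 6 libraries against 2624 for Dnajc1. Dnajc24, which acts in making diphthamide, a modified residue of an elongation factor, had 6.01, 5.33 and 6.67 CPM in IP and 13.8, 11.1 and 12.5 CPM in input. It too did not overlap and held without each library (log2 fold change -1.05 ± 0.20, adjusted p = 0.00547). Immp1l, on the opposite strand, shares 1657 exonic bases with Dnajc24 and held 6600 counts against 2822. Immp1l was not called (log2 fold change 0.25). The part of Mllt10 and Immp1l in these values was not tested.

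Dnajc28 had 13.7, 12.9 and 10.4 CPM in IP and 19.6, 18.8 and 20.7 CPM in input (log2 fold change -0.68 ± 0.17, adjusted p = 0.0175 in the quasi-likelihood test of edgeR), and its call was lost without IP replicate 2 (0.0527), IP replicate 3 (0.0665) or input replicate 3 (0.0874). Dnajc3, which binds Hspa5 in the ER lumen, had 38.1, 43.7 and 34.9 CPM in IP and 55.3, 52.9 and 51.3 CPM in input (-0.45 ± 0.13, adjusted p = 0.0358). The groups of both genes lay apart. The call of Dnajc3 held without IP replicate 2 and was lost without each other library (adjusted p = 0.0629 to 0.136) and with a correction for transcript length (adjusted p = 0.0938).

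**Figure D5:**
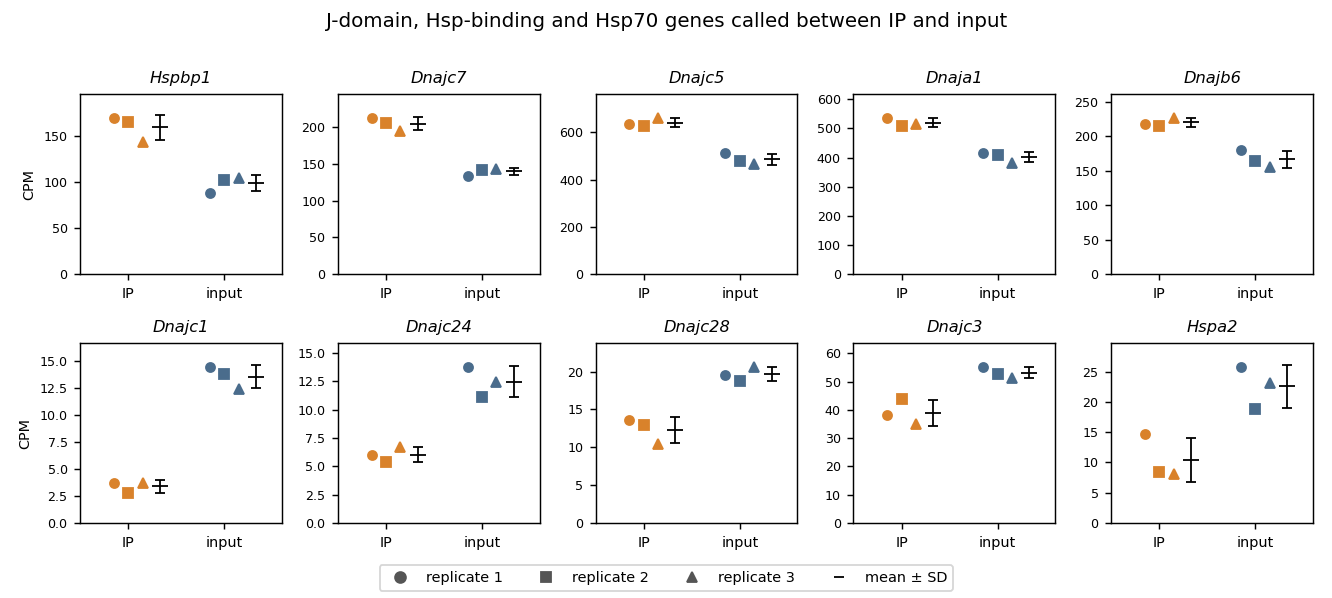
CPM of 10 chaperone genes called between IP and input, IP at the left and input at the right of each panel (circles, squares and triangles are replicates 1, 2 and 3; black bars are mean ± SD, n = 3; axes start at 0). In the top row IP lies above input and in the bottom row below it, without overlap, and Dnajc1 shows the widest gap.

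The remaining J-domain genes were not called. In classes A and B they were Dnaja2, Dnaja4, Dnajb2, Dnajb3, Dnajb4, Dnajb5, Dnajb9, Dnajb12, Dnajb13 and Dnajb14, of which Dnaja2, a cytosolic class A protein, came nearest with 303, 315 and 290 CPM in IP and 246, 252 and 232 CPM in input (adjusted p = 0.0576). Dnajb5 showed input replicate 1 far from the others, at 77.9, 84.0 and 66.2 CPM in IP and 116, 53.5 and 59.1 CPM in input, the same library that was high in immediate early genes. In class C they were Dnajc2, Dnajc10, Dnajc13, Dnajc14, Dnajc16, Dnajc17, Dnajc18, Dnajc21 and Dnajc25, besides those named above. Of these Dnajc13, an endosomal protein, had every IP library below every input library, at 28.2, 24.5 and 26 CPM in IP and 46.3, 30.8 and 29.3 CPM in input (-0.44 ± 0.20, adjusted p = 0.130).

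Small heat shock proteins were low in both groups and none of the 5 tested was called. Hspb8 and Hspb6, the most abundant by CPM, had 15.9, 14.9 and 25.0 CPM in IP and 15.3, 18.3 and 24.4 CPM in input, and 15, 12.9 and 14.9 CPM in IP and 8.65, 17.6 and 10.3 CPM in input. Hspb1, or Hsp27, overlapped as well, at 3.41, 8.33 and 7.44 CPM in IP and 2.55, 8.67 and 5.57 CPM in input, and Hspb3 stayed under 1 CPM in every library. Hspb11, which works in intraflagellar transport, had 11.6, 13.1 and 12.5 CPM in IP and 5.81, 9.44 and 8.62 CPM in input, without overlap (log2 fold change 0.64 ± 0.22, adjusted p = 0.0611), and it passed with the replicate block (adjusted p = 0.0352). Cryab, the small heat shock protein with a crystallin name and a gene abundant in oligodendrocytes, was lower, with 35.9, 22.6 and 35.1 CPM in IP and 138, 247 and 198 CPM in input (-2.64 ± 0.26, adjusted p = 0.000362). The genes left untested for low counts were Hspb2, Hspb7, Hspb9, Dnajb7, Dnajb8, Dnajc22 and Dnajc5b, and no library held more than 0.367 CPM of any of them.

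The genes were also grouped by what induces or houses them, and these groups share members. Over all tested genes 12.9% were higher and 17.1% lower, and no group was tested against these shares. Of 9 genes known to rise on heat, 3 were higher and none lower (median log2 fold change 0.29), and those 3 were Dnaja1, Hspd1 and Hspe1. Hspd1 and Hspe1 are also counted with the mitochondrial genes above. The summed level of the 9 was 3441, 3630 and 3432 CPM in IP and 2683, 2898 and 2804 CPM in input, most of it Hsp90aa1. Of 5 tested regulators of that response, Hsf4, a heat shock factor, and Hsbp1, which binds heat shock factor 1, were higher, with log2 fold changes of 0.64 ± 0.19 and 0.53 ± 0.14 (adjusted p = 0.0375 and 0.0238, quasi-likelihood test of edgeR). Both calls ended with the length correction (adjusted p = 0.103 for Hsf4 and 0.1003 for Hsbp1) and with library totals (0.0681 and 0.0572). Of the single libraries, leaving out input replicate 2 kept the call of Hsf4 and leaving out any of the other 5 ended it (adjusted p up to 0.135), and that of Hsbp1 was lost without IP replicate 1, IP replicate 3 or input replicate 3 (up to 0.0894). Hsf1, the main heat shock factor, was not called at 43.5, 50.5 and 47.4 CPM in IP and 33.4, 46.0 and 39.6 CPM in input. The 3 synaptic genes, Dnajc5, Dnajc6 and Hspa8, are those given above, with 1 called.

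Of 13 genes of the ER, 1 was higher and 2 lower (median log2 fold change 0.16), beside 12.9% higher and 17.1% lower over all tested genes. With the length correction 4 were higher and 1 lower, and with library totals 0 were higher and 2 lower. Dnajb11, which brings unfolded proteins to Hspa5, was the higher one, with 50.7, 53.6 and 46.9 CPM in IP and 34.8, 38.4 and 39.6 CPM in input (log2 fold change 0.42 ± 0.13, adjusted p = 0.0375), and its call was lost without any single library (adjusted p = 0.0512 to 0.131). The lower ones were Dnajc1 and Dnajc3. The summed level of the 13 was 1018, 1060 and 998 CPM in IP and 1005, 992 and 964 CPM in input, which overlapped. The ER stress response element, searched as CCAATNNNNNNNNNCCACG and its reverse complement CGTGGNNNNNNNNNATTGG on both strands, occurred in 39 of all 32851 promoter windows (0.119%) and in those of 3 chaperone genes, Hspa5, Hsp90b1 and Dnajc3. It is shown because these 3 ER genes share it while 1 of them was called, with the fixed letters in capitals and 5 bases on either side, in the direction of the gene (GRCm38.p6, chr2:34772025-34772043, plus strand, for Hspa5; chr10:86705638-86705656, minus strand, for the first of 2 in Hsp90b1; chr14:118937827-118937845, plus strand, for Dnajc3).
Hspa5: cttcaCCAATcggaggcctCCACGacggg
Hsp90b1: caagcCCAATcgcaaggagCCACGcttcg
Dnajc3: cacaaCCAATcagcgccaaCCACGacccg

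Of 19 ER folding genes under other names, 3 were higher and 1 lower, and with the replicate block 6 were higher and 1 lower. Among those higher was Hyou1, which is also counted with the exchange factors above. The 3 added were Sdf2l1, Manf and Fkbp2, with an adjusted p of 0.0484, 0.0130 and 0.0078 with the block and of 0.172, 0.0579 and 0.0540 without it. Erp29, which aids secretory protein folding, had 160, 164 and 167 CPM in IP and 49.1, 69.6 and 79.4 CPM in input (log2 fold change 1.31 ± 0.18, adjusted p = 0.00158), and Txndc5, a disulfide isomerase, had 102, 101 and 97.7 CPM in IP and 49.9, 65.9 and 58.7 CPM in input (adjusted p = 0.00436). Serpinh1, the collagen chaperone, was lower, with 3.30, 1.34 and 1.57 CPM in IP and 6.18, 8.60 and 9.10 CPM in input (-1.94 ± 0.39, adjusted p = 0.00744). Of 5 tested small heat shock and J-domain genes under other symbols none was higher and 2 were lower, Cryab and Sec63. Sec63, a J-domain protein of the ER translocon, was lower with a log2 fold change of -0.47 ± 0.15 (adjusted p = 0.0402), but its call was lost without any single library (adjusted p = 0.0760 to 0.143) and with the length correction (log2 fold change -0.20, adjusted p = 0.354).

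In GENCODE M39, 59 of the 83 genes share exonic bases with another gene, 58 of them with one on the opposite strand. The authors' deposited table of their own comparison listed 21 of the 83 genes as higher and 6 as lower at an adjusted p under 0.05, and all 24 genes called here were called there with the same sign. In the authors' deposited table the log2 fold changes of Hspe1, Hspbp1, Tcp1 and Dnajc1 were 1.09, 0.72, -0.39 and -1.97.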

How the data were processed

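Poly(A) RNA of 3 IP and 3 input libraries was sequenced as paired reads of 75 bases, per the labels' protocols. HISAT2, featureCounts, DESeq2 and the mm39 build are named in the submitters' processing notes; versions and strand setting are not given in the sources used here. The authors deposited raw counts per gene, used here as they stand (48204567 to 53056642 per library), and FPKM, used to compare genes. The deposited table also holds size-factor normalized counts (a signal), gene length in bases (used for the length correction), and the authors' log2 fold changes with p-values and adjusted p-values.

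Libraries were compared with edgeR 4.0.16 in R 4.3.3: TMM scaling, filterByExpr, glmQLFit and glmQLFTest, two-sided, no covariate, Benjamini-Hochberg over 18640 genes, called at an adjusted p under 0.05. CPM use TMM library sizes. The code was tested on simulated data. Alternatives were other scalings, DESeq2 1.42.0, other count filters, a replicate block, a length correction and libraries left out. IP and input libraries of one number share a tissue pool, per the series' design text, and their deviations correlated at 0.42, 0.23 and 0.21. Those of libraries with unlike numbers correlated at -0.38 to 0.21. IP replicate 3 stood at 0.214 with input replicate 2 and at 0.212 with input replicate 3. A blocked p is given beside each call in the text that the block changed. The reported fit has no block, so its p-values measure the spread between libraries within a group. Each library comes from a pool of 3 animals, so the spread between single animals was not measured.

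Every tested Hsp90, Hsp70, Hsp110, CCT, mitochondrial chaperonin and Hsp-binding gene was named, and in other classes and lists those with the smallest adjusted p; further J-domain genes are named for completeness. The genes, lists, markers and this rule were chosen with earlier results of these data known. Promoters are RefSeq's (GRCm38.p6); exon overlaps are from GENCODE M39 (GRCm39), which held all 83 genes. The values of 1 further gene, kept in the counts, are not reported here.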

Additional observations from a re-analysis of the deposited data

How the results depend on the processing

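No called chaperone gene changed sign under any alternative. The number of genes higher in IP was 18, and 20 with RLE factors, 9 with library totals, 23 with DESeq2, 15 without a count filter, 18 with a stricter one, 24 with the length correction and 22 with the replicate block, which moved it by less than 1.5 times and ended no call. The number lower was 6, and 4 to 6 under the same alternatives. With libraries or whole replicates left out, counts ran from 0 to 19 for genes higher and from 1 to 5 for genes lower, and over all genes from 133 to 2630 higher and from 742 to 3080 lower; the lowest 4 came without replicate 3 in both groups, a fit of 2 libraries against 2. Genes that passed the threshold under one of these alternatives but not in the reported fit were Dnaja2, Dnajb3, Dnajc12, Hspa8 and Hspb11 (DESeq2), Dnaja2 and Dnajc12 (RLE factors), Hspa8, Hspa12a, Hspb11 and Dnajc12 (replicate block), and Cct4, Hsp90aa1, Hspa8, Dnajb14, Dnajc10, Dnajc12 and Dnajc16 (length correction). Genes that turned sign were all uncalled. With the length correction Hspa13 moved to 0.11, Dnajc6 to 0.14, Hspb1 to -0.13, Dnajc4 to -0.085, Dnajc2 to 0.098 and Dnajb5 to 0.20, and with library totals Hspa4l moved to -0.077, Hsph1 to -0.096 and Dnajb4 to -0.073. Dnajb5, near 0 in the reported fit, was also above 0 with RLE factors, DESeq2, other count filters and the replicate block, at 0.0049 to 0.079. With libraries left out, log2 fold changes ran from -0.081 to 0.075 for Hsp90ab1, -0.24 to 0.074 for Hspa13, -0.41 to 0.088 for Hspa1b, -0.066 to 0.13 for Hspa4l, -0.031 to 0.10 for Hsph1, -0.32 to 0.18 for Hspb8, -0.0052 to 0.69 for Hspb6, -0.11 to 0.016 for Dnajc6, -0.15 to 0.68 for Hspb1, -0.36 to 0.92 for Hspb3, -1.05 to 0.24 for Dnajb13, -0.23 to 0.44 for Dnajb5 and -0.076 to 0.024 for Dnajc2. The cause was not tested. Depth limits genes such as Cct6b, Hspb3 and Dnajb13, near or under 1 CPM in every library, where 3 counts are 0.0551 to 0.0651 CPM.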
